A study of Mus musculus with 12 samples.

Results

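The Hox genes encode homeodomain transcription factors that give cells their position along the body axis. In the mouse they lie in 4 clusters, and the order of the genes in a cluster follows the order in which they are switched on from head to tail. The clusters are known for dense conserved regulatory sequence and for few inserted repeats. Described here are the DNA fragments of the Hox clusters that were captured in vitro by ZBTB43, a zinc finger protein that binds alternating purine-pyrimidine repeats such as (CA)n, sequences able to form left-handed Z-DNA.

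The study bound His-MBP-ZBTB43 (the protein fused to maltose-binding protein, MBP) to magnetic beads, mixed it with fragmented mouse genomic DNA and sequenced what stayed bound. The unmethylated DNA was that of TKO ES cells, male embryonic stem cells of 1 clone with the genotype Dnmt1-/-Dnmt3a-/-Dnmt3b-/-, which lacks the DNA methyltransferases. Methylated DNA came from the lung of wild type adult male C57BL/6N mice (2 months old) and was treated with M.SssI, a bacterial enzyme that methylates CpGs, after fragmentation. MBP alone was used on each DNA as the background, with 2 libraries in each of these 4 conditions, and 4 further libraries from sperm DNA were not used here. Cell type and strain therefore cannot be told apart from methylation when the DNAs, called TKO and SssI here, are set side by side.

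The authors pooled the duplicates and called 1 list of peaks for each DNA, 175775 SssI peaks and 14694 TKO peaks, each with a score that was taken as 10 times the −log10 q-value, as the peak caller writes it. These 2 lists hold neither read counts nor a replicate error, so no test between the DNAs was made, and the coverage of single libraries was not analysed here. Scores rise with depth, and ranks were therefore given within a list only, from 1 for the highest score. All 95% intervals below cover counting error over peaks, tracts or genes and treat these as independent. Each cluster was taken from the first to the last of its listed genes, 38 genes in all (10 Hoxa, 10 Hoxb, 9 Hoxc and 9 Hoxd), and a peak belonged to it if it overlapped this span by at least 1 bp. Coordinates are those of mm10 with the GENCODE M21 annotation. Hoxa lay on chromosome 6 from 52162417 to 52260880, Hoxb on chromosome 11 from 96194316 to 96368256, Hoxc on chromosome 15 from 102921103 to 103036852 and Hoxd on chromosome 2 from 74668310 to 74765142. These spans, 484988 bases together, held 42 of the SssI peaks and 6 of the TKO peaks. The 500 kb on either side of each cluster, called the flanks, held 313 SssI and 30 TKO peaks.

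The 6 TKO peaks inside the clusters are shown first, since they are the sites that ZBTB43 captured from both DNAs. All 6 overlapped an SssI peak. The sequences are from the plus strand of the GRCm38 reference, the assembly that mm10 names, and the capitals mark every run of at least 12 bp in which purines and pyrimidines alternate. The longer peak between Hoxb13 and Hoxb9 is cut to its first 300 bases. The reference is that of C57BL/6J, so repeats in the DNA used may have had other lengths.
between Hoxb13 and Hoxb9, chr11:96212579-96212751: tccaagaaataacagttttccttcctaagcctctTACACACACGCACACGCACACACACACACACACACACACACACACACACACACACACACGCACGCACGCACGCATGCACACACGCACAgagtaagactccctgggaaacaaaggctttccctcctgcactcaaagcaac
between Hoxb13 and Hoxb9, chr11:96231384-96231683: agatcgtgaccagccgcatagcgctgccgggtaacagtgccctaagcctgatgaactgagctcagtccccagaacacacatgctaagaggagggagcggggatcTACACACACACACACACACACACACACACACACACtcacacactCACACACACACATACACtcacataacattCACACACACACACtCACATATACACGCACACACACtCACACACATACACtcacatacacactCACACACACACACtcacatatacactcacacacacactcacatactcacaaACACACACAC
upstream of Hoxb8, chr11:96278370-96278602: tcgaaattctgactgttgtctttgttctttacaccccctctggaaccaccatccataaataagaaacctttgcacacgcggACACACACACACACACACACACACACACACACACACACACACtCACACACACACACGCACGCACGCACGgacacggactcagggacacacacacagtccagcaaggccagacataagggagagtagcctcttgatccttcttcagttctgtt
upstream of Hoxb6, chr11:96290393-96290590: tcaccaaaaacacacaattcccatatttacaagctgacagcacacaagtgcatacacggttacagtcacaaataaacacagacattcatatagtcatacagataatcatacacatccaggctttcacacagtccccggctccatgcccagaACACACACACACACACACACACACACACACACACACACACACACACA
intron of Hoxb3, chr11:96329629-96329784: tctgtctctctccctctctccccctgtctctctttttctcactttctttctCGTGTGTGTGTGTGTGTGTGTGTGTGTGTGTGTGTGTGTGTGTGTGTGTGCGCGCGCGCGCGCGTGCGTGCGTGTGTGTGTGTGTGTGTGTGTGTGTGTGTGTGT
intron of Hoxd3 and Hoxd4, chr2:74718349-74718559: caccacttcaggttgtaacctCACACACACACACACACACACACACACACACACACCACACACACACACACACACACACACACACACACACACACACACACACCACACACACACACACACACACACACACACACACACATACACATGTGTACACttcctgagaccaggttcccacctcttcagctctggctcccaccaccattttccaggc

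Each of them held (CA)n or (TG)n, but their CpG content ranged widely. The Hoxb3 peak held 10 CpGs, all in a tract of 111 bp that has a (CG)n stretch of 15 bp in its middle. The Hoxd peak held 3 CA tracts side by side and 0 CpGs in the reference, so that the same bases could carry no CpG methylation in either DNA if these matched the reference. The Hoxb6 peak began in a stretch without a tract and ended in 47 bp of (CA)n.

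Of SssI peaks with no TKO peak over them, those shown next include the only strong one (Hoxa), a pair with several CpGs in the tract (Hoxc12 and Hoxd3), and the peak closest to the start of a Hox gene (Hoxd9). Build, strand and capitals are as above, and the Hoxa peak is cut to its first 300 bases.
between Hoxa5 and Hoxa4, chr6:52200417-52200716: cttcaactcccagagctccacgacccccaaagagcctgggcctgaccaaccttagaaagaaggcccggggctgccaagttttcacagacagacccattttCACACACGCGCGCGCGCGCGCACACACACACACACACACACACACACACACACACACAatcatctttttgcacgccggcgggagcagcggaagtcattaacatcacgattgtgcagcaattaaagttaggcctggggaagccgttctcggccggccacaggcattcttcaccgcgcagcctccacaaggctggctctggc
upstream of Hoxc12, chr15:102935290-102935513: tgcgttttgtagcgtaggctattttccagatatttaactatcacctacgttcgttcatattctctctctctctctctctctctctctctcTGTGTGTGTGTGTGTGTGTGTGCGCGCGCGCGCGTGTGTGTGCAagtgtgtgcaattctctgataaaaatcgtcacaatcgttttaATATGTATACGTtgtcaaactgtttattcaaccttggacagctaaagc
upstream of Hoxd9, chr2:74697358-74697540: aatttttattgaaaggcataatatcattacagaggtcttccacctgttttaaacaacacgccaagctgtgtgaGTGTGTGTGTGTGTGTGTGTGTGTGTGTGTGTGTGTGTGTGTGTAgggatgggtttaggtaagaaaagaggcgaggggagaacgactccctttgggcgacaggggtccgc
upstream of Hoxd3, chr2:74711320-74711535: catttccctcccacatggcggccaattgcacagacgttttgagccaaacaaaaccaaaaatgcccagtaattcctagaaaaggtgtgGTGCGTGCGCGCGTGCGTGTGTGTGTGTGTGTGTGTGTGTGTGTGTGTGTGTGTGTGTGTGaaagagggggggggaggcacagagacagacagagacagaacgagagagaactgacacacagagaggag

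The density of SssI peaks in the Hox clusters could not be told apart from that beside them. The clusters held 8.66 SssI peaks per 100 kb (95% exact Poisson interval 6.24 to 11.7) and their flanks 7.83 (6.98 to 8.74), against 6.64 over the genome. The ratio of clusters to flanks was 1.11, with an interval of 0.782 to 1.53 that includes equality. For TKO peaks the densities were 1.24 per 100 kb in the clusters (0.454 to 2.69) and 0.750 in the flanks (0.506 to 1.07), against 0.555 over the genome. Their ratio was 1.65, and its interval of 0.561 to 4.03 leaves a lower as well as a much higher density possible.

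The single clusters differed in their counts, but the intervals of all 4 overlapped. Hoxa held 6 SssI peaks, or 6.09 per 100 kb (2.24 to 13.3), beside 7.30 in its flanks. Hoxd also held 6, at 6.20 per 100 kb (2.27 to 13.5) beside 7.30. These counts are common ones for the genome: when it was divided into tiles of the same length, 55.7% of the tiles of Hoxa length and 54.5% of those of Hoxd length had at least 6.

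Hoxb held 17 SssI peaks, or 9.77 per 100 kb (5.69 to 15.6), beside 9.80 in its flanks. Hoxc held 13, the highest density at 11.2 (5.98 to 19.2), beside 6.90 in its flanks. At least 17 peaks were found in 20.9% of the genome's tiles of Hoxb length, and at least 13 in 15.3% of those of Hoxc length. The ratio of Hoxc to its flanks was 1.63 (0.825 to 2.97), so that equal density lies within its interval.

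Of the 6 TKO peaks, 5 lay in Hoxb, and 2 of these were near the bottom of the list, with scores of 19 and 16. The Hoxb density of 2.87 per 100 kb (0.933 to 6.71) stood beside 1.00 in its flanks, a ratio of 2.87 (0.771 to 9.23). Of the genome's tiles of that length, 2.10% held at least 5 TKO peaks, a share given for the cluster with the most of them. Hoxd held 1, and 36.4% of tiles of its length held at least that many. Hoxa and Hoxc held none, which allows up to 3.75 and 3.19 peaks per 100 kb, and tiles without a TKO peak made up 63.2% and 59.2% at these lengths. The TKO intervals of the clusters overlap, so that a difference between them was not resolved. The map of peak scores over the clusters and flanks shows the Hoxb span as the one with several TKO peaks.

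**Figure D1:**
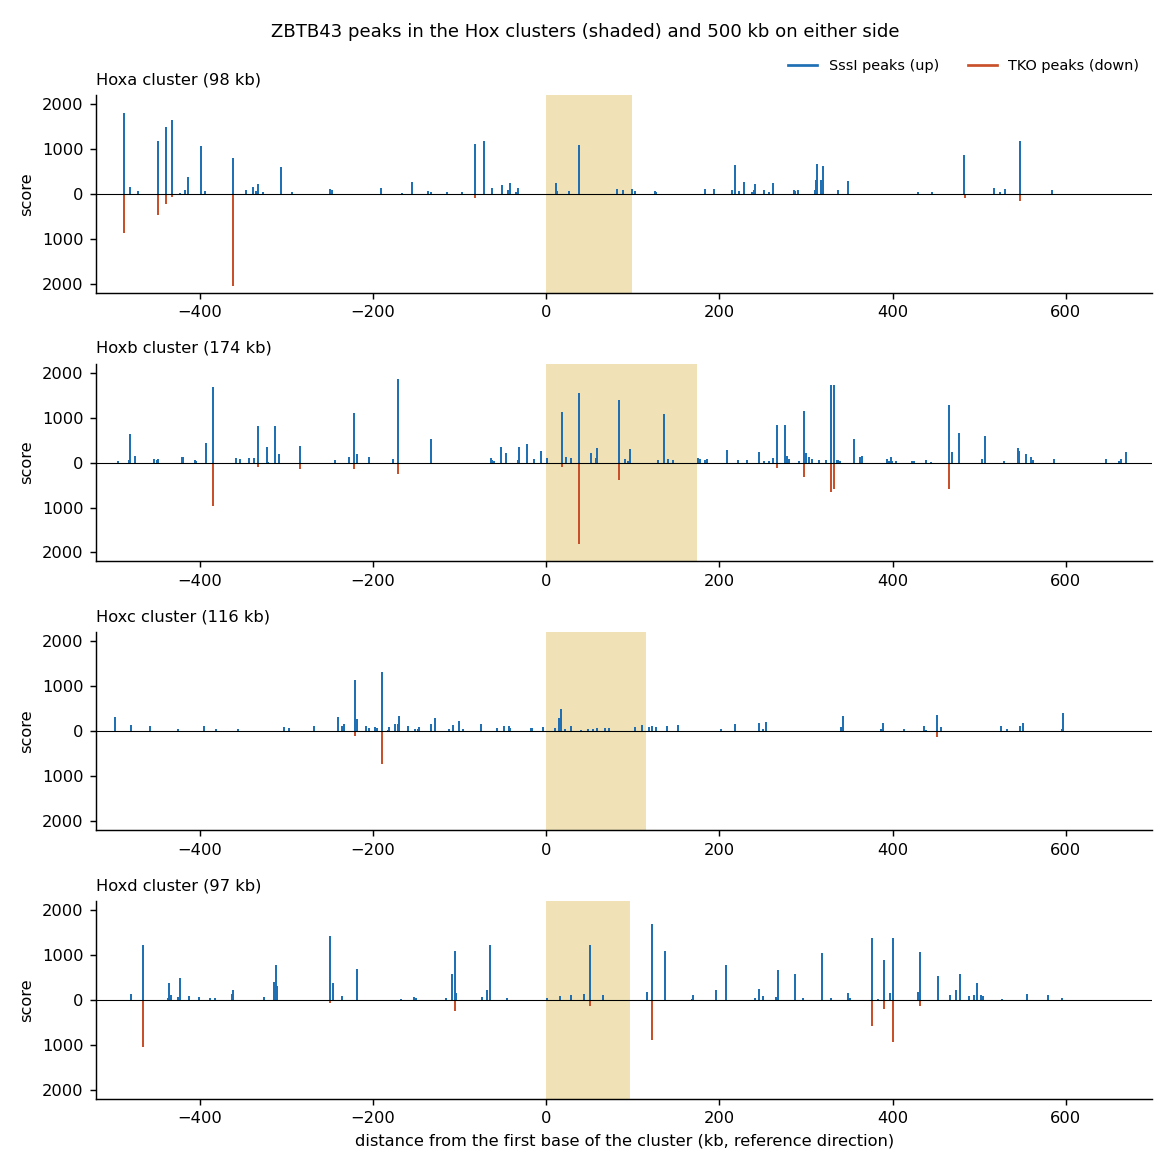
Scores of SssI peaks (blue, upward) and TKO peaks (red, downward) against the distance from the first base of each cluster in kb, with the cluster shaded and 500 kb on either side. Hoxb held 5 of the 6 TKO peaks inside a cluster and Hoxd the other one, while Hoxa and Hoxc held none.

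**Figure D2:**
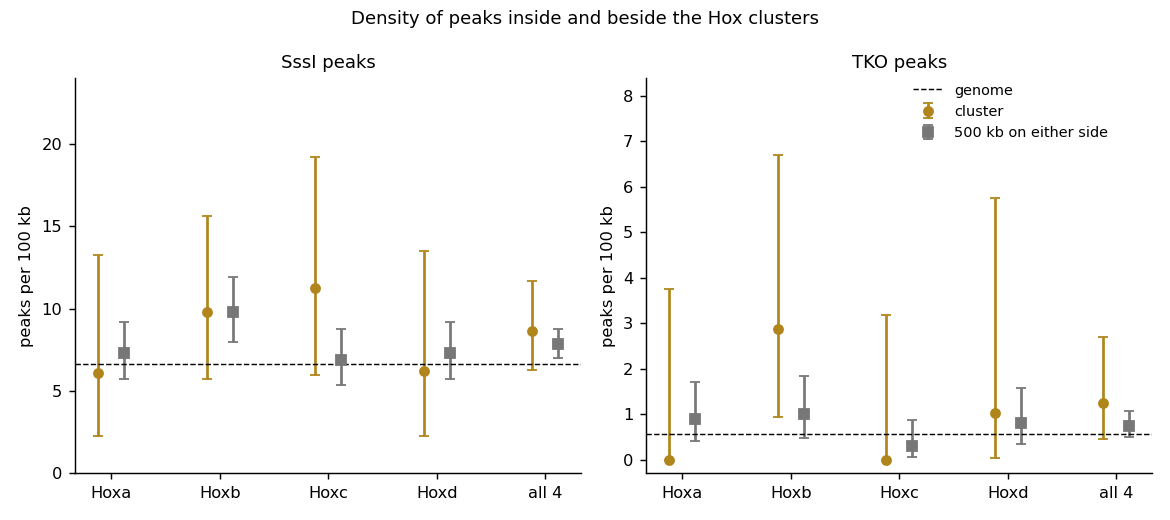
Peaks per 100 kb of SssI (left) and TKO (right) in each cluster (circles) and its flanks (squares) with exact Poisson 95% intervals, and the genome's density as a dashed line. The SssI interval of every cluster overlaps that of its flanks, and for all 4 the points are 8.66 and 7.83.

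Hoxb has a feature that the other clusters lack, a stretch of 74009 bp between Hoxb13, a posterior gene active in tail bud and prostate, and Hoxb9. This stretch held 7 of the 17 SssI and 2 of the 5 TKO peaks of Hoxb. The compact remainder from Hoxb9 to Hoxb1 held 9 SssI peaks, at 9.30 per 100 kb (4.25 to 17.7), and 3 TKO peaks, at 3.10 (0.639 to 9.06). With Hoxb taken from Hoxb9 on, the clusters together held 34 SssI peaks at 8.34 per 100 kb and 4 TKO peaks at 0.981. The stretch was set apart after the data had been seen, and its soft-masked repeats covered 34.1% of its bases against 18.0% from Hoxb9 to Hoxb1.

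Most peaks inside the clusters were weak, and 6 were strong. The 42 SssI scores had a median of 92 (quartiles 60 and 241), near the 112 of the flanks (60 and 265) and the 108 of the whole list (62 and 230). Scores of at least 677 marked the highest 10% of the SssI list, called strong here. Inside the clusters 6 of 42 peaks reached it, 14.3% (Wilson interval 6.72 to 27.8%), beside 11.8% in the flanks. Of these 6, Hoxb held 4, Hoxa 1 and Hoxd 1, whereas no Hoxc peak scored above 503.

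Of the 6 strong SssI peaks, the highest score was 1547, rank 3448, on chromosome 11 from 96231349 to 96231885 between Hoxb13 and Hoxb9. Its TKO partner scored 1801, rank 918, and was the one TKO peak of the clusters in the highest 10% of that list. Printed above, this site is a broken array of 10 alternating tracts of which the longest has only 35 bp. The next SssI score was 1389, rank 5340, at 3440 bp upstream of Hoxb8, a gene of the trunk region, with a TKO score of 397, rank 4659. It lay 1870 bp past the end of Hoxb9.

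The Hoxd site came next with an SssI score of 1220, rank 7575, and a TKO score of 142, rank 8602, in introns shared by the models of Hoxd3 and Hoxd4. The other Hoxb13-Hoxb9 site scored 1136, rank 8829, in SssI and 104, rank 10072, in TKO, with 7 CpGs in a tract of 88 bp. The Hoxb3 intron site scored 1087, rank 9470, in the SssI list but only 19, rank 14623, in the TKO list, near the bottom of it. The weakest TKO peak, 1984 bp upstream of Hoxb6, scored 16, rank 14664, under an SssI score of 302. High SssI ranks inside the clusters thus went with TKO ranks from the top to the very end of that list.

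The strong site with no TKO peak lay in Hoxa, on chromosome 6 from 52200417 to 52200726. Its SssI score was 1094, rank 9425. The peak lies in an exon of a long non-coding transcript model of Hoxa3 and between the genes of Hoxa4 and Hoxa5, the latter needed for lung development. It held 19 CpGs, the most of any peak inside the clusters. Of these, 7 lay in the tract of 58 bp, which carries 15 bp of (CG)n, as does the Hoxb3 tract with its TKO score of 19. Of strong SssI peaks, 5 of 6 in the clusters, 27 of 37 in the flanks (73.0%, 57.0 to 84.6%) and 68.6% in the whole list overlapped a TKO peak.

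Of all 42 SssI peaks inside the clusters, 6 overlapped a TKO peak (14.3%, 6.72 to 27.8%), beside 30 of 313 in the flanks (9.58%, 6.80 to 13.4%) and 8.23% of the whole list. The interval for the clusters holds the other values. Every TKO peak of the clusters and of the flanks overlapped an SssI peak, as did 99.4% of the TKO list.

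SssI scores inside the clusters were higher where the longest tract held several CpGs. In the 7 peaks whose longest tract held 4 or more CpGs, scores ran from 109 to 1136 with a median of 320. In the 7 with 1 to 3 CpGs they ran from 42 to 302 with a median of 93, and in the 26 with none from 17 to 1547 with a median of 82. The remaining 2 peaks held no tract of 24 bp. The ranges overlap, and 3 of the 6 strong peaks had no CpG in their longest tract. Outside that tract, however, these peaks of scores 1547, 1389 and 1220 held 7, 10 and 1 CpGs. In the peak of score 1389, 4 of them lay in a neighbouring tract of 26 bp. The medians had the same order in the flanks (259, 126 and 98.5) and over the list (210.5, 120 and 100), and the median length of these tracts differed as well, from 45 to 58 bp in the clusters. In the plot of score against tract length the circled sites with a TKO peak include tracts with and without CpGs.

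**Figure D3:**
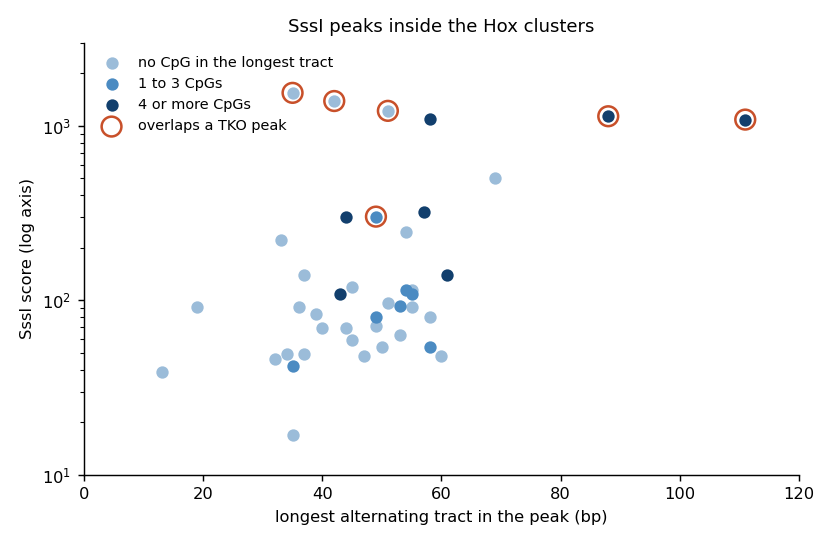
SssI score on a log axis against the length in bp of the longest alternating tract for the 42 SssI peaks inside the Hox clusters, shaded by the CpGs in that tract and circled where a TKO peak overlaps. The circled peaks run from tracts of 35 to 111 bp and, with scores of 302 to 1547, lie in the upper part of the plot.

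By place in the genes, no SssI peak had its midpoint in coding sequence of a listed gene. Introns held 21 of the 42, the untranslated part of Hoxc8 held 1, the Hoxa3 non-coding exon 1, and 19 lay between the listed genes, whose models cover 58.2% of the spans. Of the TKO peaks, 2 lay in introns and 4 between genes. The same classes were not counted over the flanks or the whole lists. The absence of SssI peaks from coding sequence thus has no share beside it and is not read as a trait of Hox genes.

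Few Hox genes held a peak in their bodies. An SssI peak overlapped 15 of 38 (39.5%, 25.6 to 55.3%), beside 57.4% of 21938 protein-coding genes, and a TKO peak 3 of 38 (7.89%, 2.72 to 20.8%), beside 16.6%. The 3 were Hoxb3, Hoxd3 and Hoxd4, and the latter pair shared their peak. Hox genes are short, with a median length of 3496.5 bp against 17425 bp, which a window of fixed length sets aside. Within 5 kb of the 5′ end, 25 of 38 Hox genes had an SssI peak (65.8%, 49.9 to 78.8%), beside 45.5% of protein-coding genes, and 3 had a TKO peak (7.89%, 2.72 to 20.8%), beside 4.93%. The order of Hox genes and all genes therefore turned between the body and the window.

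The 25 genes do not stand for separate sites, because their windows overlap. Together they drew on 26 peaks, of which 22 lay inside the clusters and 4 just outside. The 3 genes with a TKO peak in the window were Hoxb6, Hoxb7 and Hoxb8, and 2 peaks served them. With a window of 3 kb the SssI count was 16 of 38 (42.1%, 27.9 to 57.8%), beside 30.7% of protein-coding genes. With 10 kb it was 33 of 38 (86.8%, 72.7 to 94.2%), beside 68.0%.

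In Hoxc all 9 genes had an SssI peak within 5 kb of the 5′ end, and 5 of the 9 had one within 3 kb. The highest scores were on both sides of Hoxc12, with 302 at 1355 bp upstream of the gene and 503 at its last bases. Hoxc13, a gene of hair and nails, drew its peak from outside the cluster, 3285 bp upstream with a score of 95. Hoxc11 had the peak of score 109 at 5020 bp upstream, which reached the window with its edge. The Hoxc5 model is long, 49987 bp, and its 5′ end lies within Hoxc10, so its window is that of the Hoxc10 region. Around Hoxc10 and Hoxc5 the nearest peak lay in the introns of both with a score of 39, and Hoxc9 had its nearest peak 1725 bp upstream with a score of 48. Hoxc8 had peaks of 69 at 1374 bp upstream and of 63 in its untranslated end. Hoxc6 had only the latter peak within reach, its midpoint 5050 bp upstream, and Hoxc4 had peaks of 93 and 139 in introns. All these scores apart from those beside Hoxc12 were under 140, and none of the sites had a TKO peak.

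In Hoxb the window of 5 kb held an SssI peak at 6 of 10 genes. Hoxb7 had 3 peaks, of which that 927 bp upstream scored 80 and that in its intron 46. Hoxb13 had 1 in its intron with a score of 91. Hoxb3, a gene of the hindbrain and neck region, held 5 peaks in its long model, among them the site of score 1087 and one of score 48 at 495 bp inside its 5′ end. Hoxb1, active in the hindbrain, had only the peak outside the cluster, 4162 bp from its 5′ end with a score of 91. Hoxb2, Hoxb4, Hoxb5 and Hoxb9 had neither a peak in the body nor in the window, although the Hoxb9 5′ end lay 7008 bp from the strong peak near Hoxb8.

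In Hoxa 5 genes had a peak in the window. Hoxa11, a gene of forearm and kidney development, had a peak of score 114 in an intron 1441 bp from its 5′ end. Hoxa10 had the same peak within 3515 bp. Hoxa13, needed for digits, had its nearest peak 781 bp upstream, outside the cluster, with a score of 120. Hoxa4 had a peak of score 59 at 2959 bp downstream of its 5′ end, past the end of the gene, and Hoxa5 the strong peak at 4015 bp downstream. Hoxa3 held 4 peaks in its body but none within 5 kb of the 5′ end of its long model. Hoxa2, Hoxa6, Hoxa7 and Hoxa9 had none in either place.

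In Hoxd 5 genes had a peak in the window. The closest of all Hox peaks to a 5′ end lay 278 bp upstream of Hoxd9 with a score of 120, and its tract of 45 bp held no CpG although the peak held 5. Hoxd3 and Hoxd4, whose models start 2 bp apart, had the peak of score 140 at 499 and 501 bp upstream, with 5 CpGs in its tract. Hoxd11 had an intron peak of score 91 and Hoxd13, a gene of digits, an intron peak of score 49. Hoxd1, Hoxd8, Hoxd10 and Hoxd12 had none in either place. This brings the Hox genes with no SssI peak in the body or within 5 kb of the 5′ end to 12 of 38. The nearest SssI peaks of these 12 lay from 5471 bp (Hoxd12) to 21894 bp (Hoxd1) from the 5′ end. The share of all protein-coding genes with no peak in either place was not counted, so the 12 have no share beside them. The gene maps place each peak over the models of the Hox genes.

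**Figure D4:**
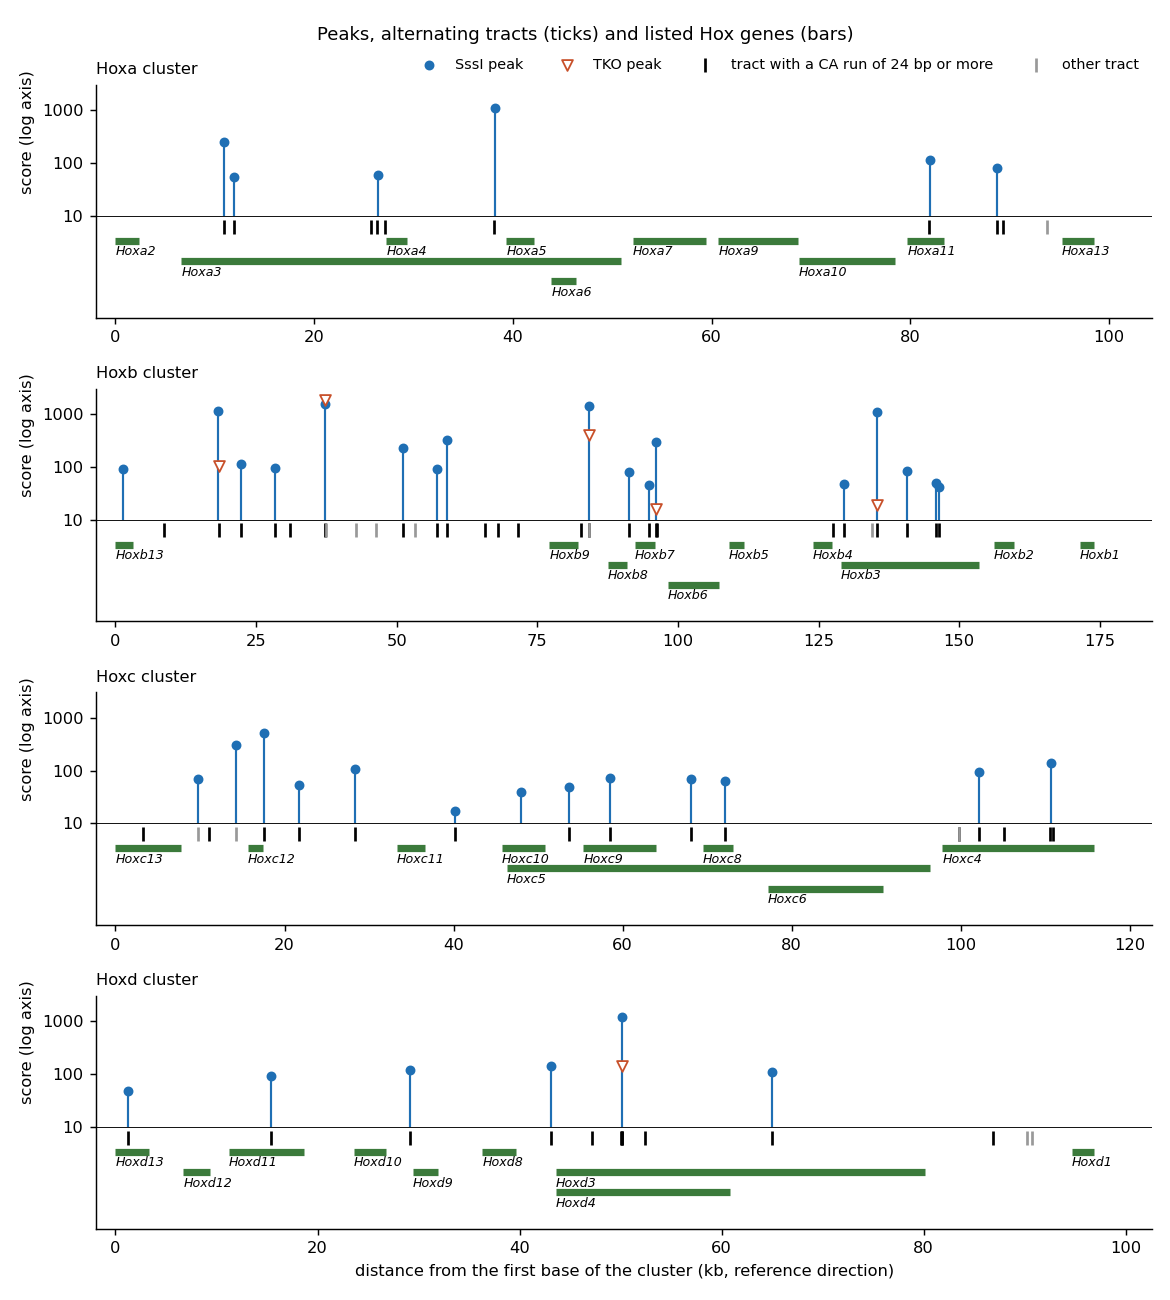
Scores on a log axis of SssI peaks (dots) and TKO peaks (triangles) inside each cluster against the distance in kb from its first base, with alternating tracts of at least 24 bp as ticks (black with a CA run of at least 24 bp, grey without) and the models of the 38 listed Hox genes as green bars. The peaks stand over most black ticks, and the right end of Hoxd has tracts but no peak.

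Each cluster also overlapped a long stretch without an SssI peak. These were picked for their length from the several gaps at each cluster, whereas the shares given are of all single gaps. A small share is thus likely for the longest gap of any span and does not mark the clusters as poor in peaks. The longest was at Hoxd, 51.3 kb from the last intron peak of Hoxd3 to a peak beyond Hoxd1, and 4.10% of the gaps between neighbouring SssI peaks in the genome were as long. At Hoxa a gap of 43.8 kb lay over Hoxa2 (5.91% of gaps), and nearly as long a stretch of 43.6 kb, wholly inside the cluster from 52200727 to 52244296, covered Hoxa5, Hoxa6, Hoxa7, Hoxa9 and Hoxa10 (5.98%). Also inside their clusters lay gaps in Hoxb of 33.1 kb over Hoxb6, Hoxb5 and Hoxb4 (10.3%) and in Hoxc of 29.9 kb over Hoxc6 (12.3%). The median gap was 8.22 kb. The gap over Hoxd1 reached 19.6 kb past the cluster and that over Hoxa2 reached 33.0 kb past it, with only 10.8 kb inside Hoxa. Without TKO peaks, Hoxc lay in a stretch of 640 kb (4.48% of gaps between TKO peaks) and Hoxa in one of 300 kb (16.0%), with a median gap of 83.6 kb. Any span falls more often into long gaps than into short ones, so these shares do not measure how rare such an absence is. Tiles without a TKO peak made up 59.2% at the Hoxc length and 63.2% at the Hoxa length.

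The sequence that ZBTB43 captures was itself present in the clusters, but in another mixture than beside them. Alternating tracts of at least 24 bp, not of A and T alone, numbered 71 in the clusters, or 14.6 per 100 kb (11.4 to 18.5), beside 19.7 in the flanks (18.3 to 21.1) and 17.2 over the genome. An SssI peak lay over 46 of the 71, 64.8% (53.2 to 74.9%), beside 47.3% in the flanks (43.9 to 50.8%) and 46.8% over the genome. The intervals of the densities in clusters and flanks overlap narrowly, and those of the shares do not overlap.

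Much of this difference in share went with the kind of tract. A CA run of at least 24 bp was part of 83.1% of the tracts in the clusters, beside 51.7% in the flanks and 52.8% over the genome. Such tracts had a density of 12.2 per 100 kb in the clusters (9.26 to 15.7), 10.2 in the flanks (9.21 to 11.2) and 9.07 over the genome. Tracts without such a run had a density of 2.47 (1.28 to 4.32), beside 9.53 (8.59 to 10.5) and 8.10. The lower density in the clusters was thus in tracts without a CA run of this length, some of which hold a shorter one.

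Among the tracts with a CA run, 42 of 59 in the clusters had an SssI peak (71.2%, 58.6 to 81.2%), beside 64.1% in the flanks (59.4 to 68.6%) and 62.6% over the genome, and these intervals overlap. Among those without, 4 of 12 had one (33.3%, 13.8 to 60.9%), beside 29.4% and 29.0%. The base composition around the tracts differed too. The clusters had 49.3% GC and 24.3 CpGs per kb, beside 43.7% and 10.8 in the flanks, and 18.2% of their bases were soft-masked repeats, beside 28.0%. Over the genome the share of CA-run tracts under an SssI peak was 59.6% where the surrounding 10 kb had under 45% GC, 70.2% at 45 to 50% and 72.3% at 50% or more. In the clusters 37 such tracts lay at 45 to 50% GC, 64.9% of them with a peak (48.8 to 78.2%), and 19 at 50% or more, 89.5% (68.6 to 97.1%). The part of base composition in the shares was not tested beyond these values.

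**Figure D5:**
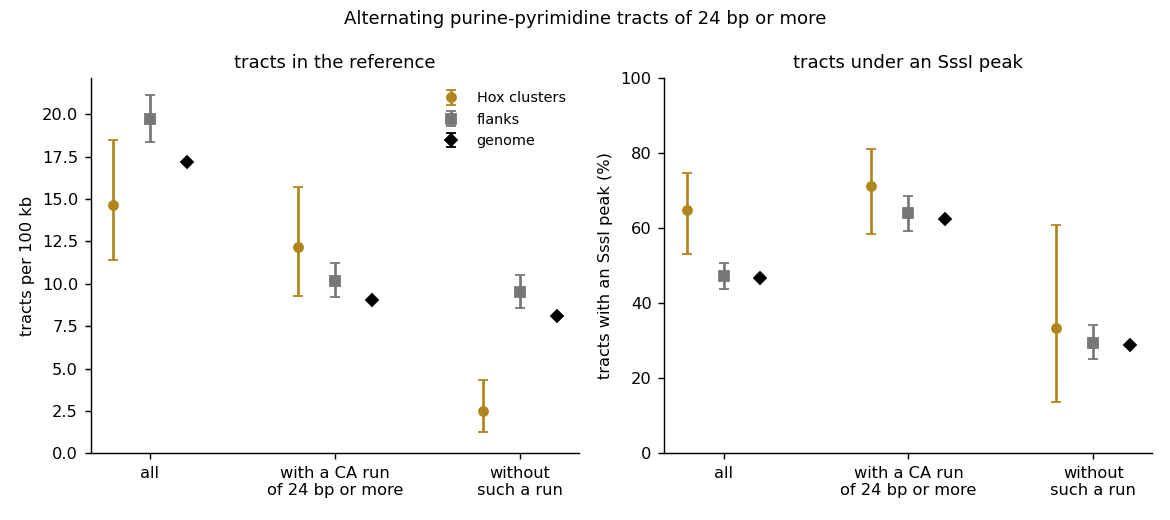
Alternating tracts of at least 24 bp per 100 kb (left, exact Poisson intervals) and the percentage of them under an SssI peak (right, Wilson intervals) in the Hox clusters, their flanks and the genome, for all tracts and for those with and without a CA run of at least 24 bp. Among tracts with a CA run the shares are 71.2, 64.1 and 62.6%, closer together than the 64.8, 47.3 and 46.8% of all tracts.

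TKO peaks lay over 10 of the 71 tracts (14.1%, 7.83 to 24.02%), beside 8.25% in the flanks (6.52 to 10.4%) and 6.24% over the genome. These 10 tracts belonged to 6 peaks, and 3 of them to the Hoxd peak alone. Among tracts with a CA run, 8 of 59 had a TKO peak (13.6%, 7.03 to 24.5%), beside 8.60% and 5.89%.

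Tracts without a peak are shown with close counterparts that had one. A pair in Hoxa, near Hoxa4, lies within 1 kb and differs by 1 bp in length. Its CA run has 41 bp in the tract with no peak and 45 bp in the tract with one. The Hoxb pair sets a longer tract with no peak beside a shorter one that had a peak. Capitals mark the whole tract, plus strand of GRCm38.
Hoxa4, no peak, chr6:52188095-52188140: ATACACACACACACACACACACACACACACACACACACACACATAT
Hoxa4, SssI peak, chr6:52188767-52188811: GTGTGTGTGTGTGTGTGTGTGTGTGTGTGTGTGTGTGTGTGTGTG
between Hoxb13 and Hoxb9, no peak, chr11:96262238-96262285: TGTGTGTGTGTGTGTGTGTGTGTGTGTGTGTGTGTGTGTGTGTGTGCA
intron of Hoxb7, SssI peak, chr11:96289153-96289184: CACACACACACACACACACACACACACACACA

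The captured tract near Hoxa4 had a peak of score 59 and that of Hoxb7 one of score 46, both in the weakest part of the list. Of the 25 tracts without a peak, 17 had a CA run of at least 24 bp, with a median length of 37 bp beside 49 bp for the 42 with a peak. The lengths overlap, from 25 to 57 bp without a peak and from 25 to 111 bp with one. Whether sequencing reads can be placed uniquely at each tract was not tested.

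Nearly every SssI peak of the clusters could be traced to a tract. All 42 held an alternating run of at least 12 bp, and 40 one of at least 24 bp (95.2%, 84.2 to 98.7%), beside 91.1% in the flanks and 91.4% over the list. The 2 exceptions were the intron peak of Hoxb13, whose longest run had 19 bp, and the intron peak of Hoxc10 and Hoxc5, with 13 bp. No CpG was present in 7 of the 42 (16.7%, 8.32 to 30.6%), beside 26.8% in the flanks (22.2 to 32.0%) and 31.9% over the list (31.7 to 32.1%). The clusters' higher CpG density stands beside this difference.

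Outside the clusters, SssI peaks came close to most ends and TKO peaks did not. The TKO list is the sparser one throughout, with a median gap of 83.6 kb over the genome against 8.22 kb. Larger distances to TKO peaks are therefore not particular to these ends. On the side of higher coordinates the nearest SssI peak lay 671 bp from Hoxa (score 120), 1568 bp from Hoxb (91), 2657 bp from Hoxc (96) and 19.6 kb from Hoxd (177). These peaks ranked 77956, 96878, 93075 and 55599 in the list. On the side of lower coordinates the distances were 33.0 kb for Hoxa (137), 6477 bp for Hoxb (259), 3180 bp for Hoxc (95) and 45.6 kb for Hoxd (52). Their ranks were 70660, 40245, 95656 and 141080, so that none of the 8 peaks bordering the clusters ranked above 40245.

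The nearest TKO peaks on the side of lower coordinates lay 81.8 kb from Hoxa (score 87, rank 11036), 171 kb from Hoxb (260, rank 6146, near Gip, which encodes a gut hormone), 189 kb from Hoxc (723, rank 2940, near Calcoco1) and 106 kb from Hoxd (254, rank 6239, in an intron of Lnpk). On the other side they lay 119 kb from Hoxa (25, rank 14517), 92.2 kb from Hoxb (114, rank 9577), 335 kb from Hoxc (129, rank 9040, near the integrin gene Itga5) and 25.5 kb from Hoxd (889, rank 2444). The closest and highest of these, beyond Hoxd1, had an SssI score of 1682.

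The highest SssI scores of the flanks were 1854, rank 1280, near Gip, then 1809, rank 1510, and a tie at 1720, rank 1949, in introns of Skap1, an adaptor of T cells. All were above the highest score in a cluster, but they were picked from 313 SssI peaks in the flanks against 42 in the clusters. Protein-coding genes of the flanks with a TKO peak were Skap1 with 4 and Zfp652, B4galnt2, Igf2bp1 and Lnpk with 1 each. The highest TKO scores of the flanks were 2059, rank 612, then 1050, rank 2071, and 956, rank 2278, in an intron of Zfp652.

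The TKO peak of score 2059, between Snx10 and Skap2 in the flank of Hoxa and 361132 bp from the cluster, is shown because it was the only one of the 30 in the flanks without an alternating run of 12 bp. Its middle 300 of 685 bases consist of short units with CACT and hold no capitals under the rule used above. Its SssI score was 799.
flank of Hoxa, chr6:51800793-51801092: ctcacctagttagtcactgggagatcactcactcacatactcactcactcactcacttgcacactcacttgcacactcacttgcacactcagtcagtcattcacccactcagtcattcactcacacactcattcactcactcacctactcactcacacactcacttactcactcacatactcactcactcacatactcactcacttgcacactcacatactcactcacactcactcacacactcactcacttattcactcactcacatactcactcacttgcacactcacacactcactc

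Evx1 and Evx2, homeobox genes that border Hoxa and Hoxd, had no peak of either list in the body or within 5 kb of the 5′ end.

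Other homeobox clusters had SssI densities of the same order as the Hox clusters' 8.66 per 100 kb. The spans from Irx1 to Irx4 and from Irx3 to Irx6 had 8.84 (7.31 to 10.6) and 11.6 (9.43 to 14.0). The short Dlx spans held 3 SssI peaks each and no TKO peak. Their SssI densities were higher but had wide intervals. They were 16.1 from Dlx1 to Dlx2 (3.32 to 47.0), 16.0 from Dlx5 to Dlx6 (3.30 to 46.8) and 11.5 from Dlx3 to Dlx4 (2.37 to 33.5).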

How the data were processed

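ZBTB43 and MBP captures of TKO and M.SssI-treated DNA were sequenced in 8 libraries. The authors aligned reads to mm10 with bwa mem 0.7.17, combined duplicates and called peaks with MACS2 2.2.7.1 at default parameters, with the MBP libraries as control. Groups came from the sample labels. The deposited score of each peak was taken as 10 times the −log10 q-value, as MACS2 writes it; no other value was used. Some called peaks had been removed before deposit. Python 3.11.15 with numpy 2.4.6 and scipy 1.17.1 computed overlaps of at least 1 bp, densities over known bases, tracts on GRCm38.p6 and distances from peak midpoints to GENCODE M21 genes. A CA run is (CA)n or (TG)n. Tract and overlap counts were tested on simulated data. The members and lists were chosen with earlier results of these data known. Genes named were Hox genes with a peak in the body or within 5 kb of the 5′ end, those without, flank genes with a TKO peak, genes at the nearest and the 3 highest peaks, and fixed lists of related genes and homeobox clusters, of which some are not reported here. Stretches singled out for long gaps, and the sequences printed, were chosen after their values were seen. Alternatives covered the q-value, peak placing and merging, spans, flanks, windows, tract length and overlap. The sperm libraries were not analysed here.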

Additional observations from a re-analysis of the deposited data

How the results depend on the processing

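Of 47 alternatives, 40 stayed within the interval of the reported value or within 1.5 times a count. The SssI density ratio of clusters to flanks ranged from 0.976 with flanks of 200 kb, the only setting tried that brought it below 1, to 1.17 with flanks of 1 Mb, and every interval included 1. The SssI density of the flanks was 6.50 per 100 kb with a q-value, read from the score, under 1e-05, where fewer peaks were counted, and 8.88 with flanks of 200 kb, for which the cause was not tested. The count of Hox genes with an SssI peak near the 5′ end was 16 with a window of 3 kb, a shorter one by construction. With tracts of at least 12 bp and of at least 36 bp, the tract density of the clusters was 43.5 and 9.90 per 100 kb. The share under an SssI peak was 35.1% and 75.0%. At 12 bp the density was 68.7 in the flanks and 62.9 over the genome, both above the interval of the clusters (37.8 to 49.8). The shares were 25.8% and 25.7%, both below the interval of the clusters (29.0 to 41.7%). At 36 bp the density was 11.2 in the flanks and 10.2 over the genome, both within the interval of the clusters (7.30 to 13.1). Shares there were 57.8% and 55.2%, both below the interval of the clusters (61.2 to 85.1%). The interval of the flanks (53.2 to 62.3%) overlaps it. The stricter q-value left 34 SssI and 4 TKO peaks in the clusters. Beginning Hoxb at Hoxb9 and keeping only tracts with a CA run were chosen after seeing the data. No paired analysis was possible because the 2 lists used here hold pooled duplicates, and no library was left out for the same reason; the coverage of single libraries was not analysed here. With 6 TKO peaks, differences in TKO density between clusters could not be resolved. The lists do not give their depth, for which the paper states only a general figure per library.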
